A study of Rattus norvegicus with 6 samples.

Results

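The antioxidant and glutathione enzyme genes of rat H9c2 cells were compared between control cells and cells taken through hypoxia and reoxygenation (H/R). Members were the coding genes on the array whose symbol names a superoxide dismutase, catalase, a glutathione peroxidase, a peroxiredoxin, sulfiredoxin, a thioredoxin or its reductase, a glutaredoxin, an enzyme of glutathione synthesis or reduction, a glutathione transferase or a metallothionein. The rule used names alone and no measured value, though it was chosen with earlier results of these data known. It found 57 of the 13823 coding genes that could be given a symbol. Each gene was read from 1 probe, the brightest where it had several.

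Superoxide dismutases turn superoxide into hydrogen peroxide, which catalase, glutathione peroxidases and peroxiredoxins then reduce. Peroxidases are recharged by glutathione or by thioredoxin, and both are kept reduced by NADPH-dependent reductases. Glutathione transferases use glutathione to conjugate electrophiles such as lipid aldehydes, and metallothioneins bind zinc and copper through their many cysteines. In heart muscle these systems are best known for handling the oxidants formed when oxygen returns after ischaemia, and many of the genes are targets of the transcription factor NRF2.

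H9c2 is a myoblast line from embryonic rat heart and is a single line, so it stands for neither adult heart muscle nor several animals. All cells were grown with 10% serum and 4500 mg/L glucose. The H/R group was put in medium without serum and glucose for 1 h, in a gas of 94% N2 with 5% CO2 and 1% O2, and was then returned to normal oxygen for 3 h. The labels give the control group no hypoxia and do not say which medium it had in those hours, so low oxygen and the loss of serum and glucose cannot be told apart. A protocol text names mouse cortex as the tissue, against the rat heart line of every other label. Both groups have 3 replicates, but replicates 2 and 3 of a group came from the same position on the slide, read in separate scans, and their spots deviated together (r = 0.946 in each group, against at most 0.68 for other pairs). Each such pair was counted as 1 array, which left 2 arrays per group, and p-values measure only the spread between these arrays.

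Signals are intensities, scaled so that the 75th percentile of every scan was 2246. Between 58.4% and 71.1% of the 42136 non-control spots of a scan were well above background and none was saturated. Precision is limited by the small number of arrays. All 4 arrays were positions of 1 slide and each held 1 group, so a position's effect cannot be told apart from its group's. Of the 21 myoblast and cardiac muscle markers on the array, Ryr2 was dark in all scans and 20 were bright enough to test. After H/R 5 were higher (25%) and 2 lower (10%), against 16.2% and 9.62% of all coding genes (Tnnt2 2.18-fold, Myod1 at 36.0% and Nppb at 37.8% of control). Some of these markers differed strongly between the H/R arrays. In H/R replicates 1, 2 and 3, Des read 1625, 6117 and 6242 and Tnni3 774, 1388 and 1396. Others lay close, such as Tnnt2 at 15213, 15314 and 15149. The leukocyte markers Ptprc, Adgre1 and Itgam and the endothelial markers Pecam1 and Cdh5 were dark in all scans. Among the 5 leukocyte markers tested, Csf1r, Aif1 and Fcer1g were above control in every scan without passing the threshold. Cd68 went the other way with overlapping scans (log2 -0.66, limma adjusted p = 0.311). Cd74 was higher (2.87-fold, adjusted p = 0.00743, with 2 of 3 control scans above background). The hepatocyte marker Ttr was higher too, at 24.8 to 29.8 in H/R and not above background in control. Alb did not pass (log2 0.43, adjusted p = 0.0937), nor did Serpina1, which went the other way (log2 -0.20, adjusted p = 0.298). Summed over their lists, leukocyte markers gave signals of 1286 to 1627 in control and 1566 to 1633 in H/R, endothelial markers 114 to 123 and 216 to 260 (Tek was higher), hepatocyte markers 143 to 159 and 152 to 168, and neuron and glia markers 326 to 368 and 364 to 369. The part of these markers, or of the muscle markers, in the members' changes was not tested. In bulk RNA, fewer cells of a type and less RNA per cell cannot be told apart.

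Among the 51 members bright enough to test, 14 were higher after H/R, 7 were lower and 30 did not pass the threshold (limma, Benjamini-Hochberg adjusted p below 0.05 over 15899 probes). The same fit called 14.8% of all probes higher and 8.87% lower, or 16.2% and 9.62% of coding genes, against 27.5% and 13.7% of the tested members. In either direction it called 23.7% of probes and 25.8% of coding genes, and scans that did not overlap came with 23.7% and 25.8% too, as for all 21 called members. At an unadjusted p below 0.05 there were 24 members, the further 3 being Cat, Gstm1 and Gstm5. Scans of H/R and control cells did not overlap for 30 of the 51 members (58.8%), a share near the 64.1% of all probes and 66.1% of coding genes. The members' median change was 0.15 on the log2 scale, against 0.07 over all probes tested. Transferases and metallothioneins supplied 11 of the 14 higher members, while the lower ones lay in glutathione synthesis, the thioredoxin system and the alpha class transferases. With each array's median set equal in place of its 75th percentile, 12 members were higher and 8 lower, and over all probes the higher share of the calls went from 62.6% to 41.0%. With background corrected by normexp, 0 members and 0 probes were called by limma (11 members had an unadjusted p below 0.05), although 20 of the 21 kept their direction. All 21 also kept their direction with each array left out in turn. Their scans did not overlap, so that outcome was fixed in advance and says nothing further about them. The other 6 members, Gpx5, Gsta6, Gstm6, Gstm6l, Gstt4 and Mt3, were not well above background in all scans of either group and were not tested.

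**Figure D1:**
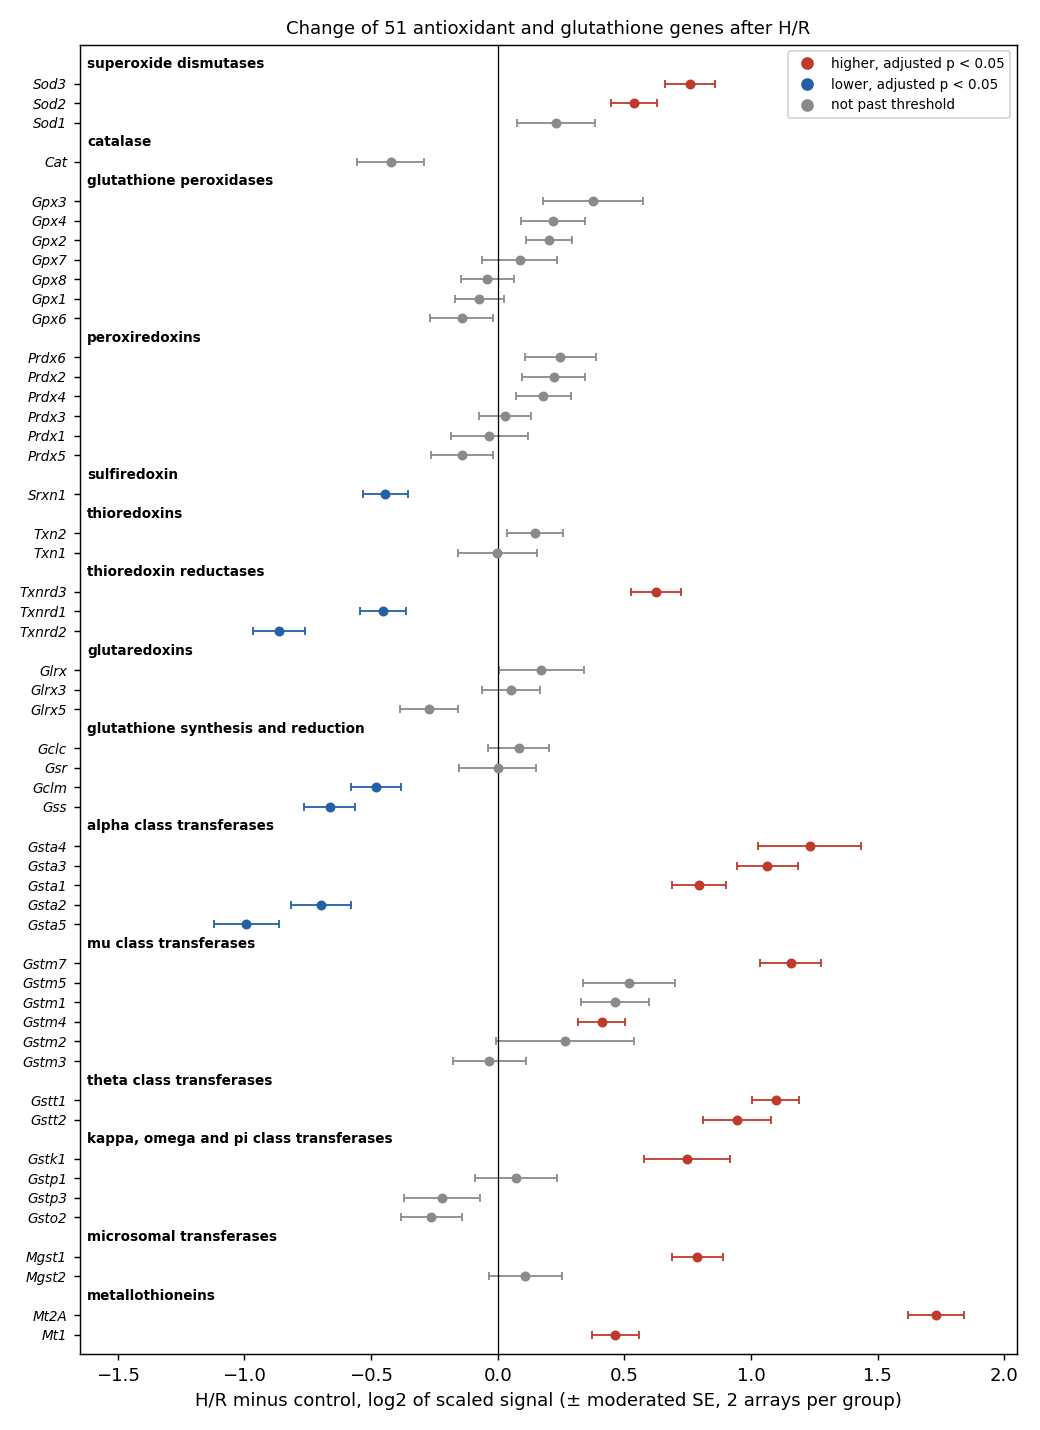
Change of the 51 tested members after H/R, grouped by role; the x axis is the H/R minus control difference in log2 scaled signal, points are means of 2 arrays per group and bars are moderated standard errors. Higher members are red and lower ones blue: the transferases and metallothioneins hold most of the red points, and no glutathione peroxidase, peroxiredoxin or glutaredoxin is coloured.

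The superoxide dismutases of mitochondria and of the extracellular space rose after H/R, and the cytosolic enzyme did not pass the threshold. Sod2, the manganese enzyme of the mitochondrial matrix, gave scaled signals of 1654, 1609 and 1604 in control replicates 1, 2 and 3 and of 2346, 2387 and 2377 in H/R replicates 1, 2 and 3. Every H/R scan was brighter than every control scan, a rise of 1.45-fold (log2 0.54 ± 0.09 SE, n = 2 arrays per group, limma adjusted p = 0.0186). Sod3, the secreted copper and zinc enzyme, read 1342, 1477 and 1472 in control and 2379, 2375 and 2382 in H/R. Its scans were also fully apart, at 1.69-fold (log2 0.76 ± 0.10, adjusted p = 0.0102). Sod1, the copper and zinc enzyme of the cytosol, read 63389, 80598 and 81771 in control and 88818, 79084 and 80022 in H/R. Here the groups overlapped, since control array 1 was the dimmest and H/R array 1 the brightest (log2 0.23 ± 0.15, adjusted p = 0.321). With any 1 of the 4 arrays left out the adjusted p of Sod2 lay between 0.0565 and 0.104, and that of Sod3 was 0.0643 without H/R array 1 and 0.0663 without H/R array 2.

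Catalase, which breaks down hydrogen peroxide in peroxisomes, gave signals of 7417, 7031 and 7133 in control and 4873, 5970 and 6021 in H/R. All H/R scans were dimmer, but H/R array 1 lay below H/R array 2, and the gene missed the threshold (log2 -0.42 ± 0.13, adjusted p = 0.0806). It passed when the medians of the arrays were set equal.

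None of the 14 glutathione peroxidases, peroxiredoxins and catalase that were tested was called by limma (1, catalase, had an unadjusted p below 0.05), and their median change was 0.06. Over all coding genes 25.8% were called in either direction. Scans of H/R and control did not overlap for 5 of the 14 (35.7%), against 66.1% of coding genes. Among 7 tested glutathione peroxidases the log2 change ranged from -0.14 to 0.38. Gpx1, the abundant selenium enzyme of cytosol and mitochondria, read 37812, 40154 and 40264 in control and 35943, 38068 and 38503 in H/R. Those groups overlapped, and the difference was smaller than its error (log2 -0.07 ± 0.10, adjusted p = 0.618). Gpx4, which reduces lipid hydroperoxides in membranes, read 22097, 18156 and 18213 in control and 23436, 23010 and 23349 in H/R. Every H/R scan was above control, but control array 1 lay close to the H/R arrays (log2 0.22 ± 0.13, adjusted p = 0.262), and a second probe of the gene gave 0.27 ± 0.12 (adjusted p = 0.164). Gpx3, the secreted plasma enzyme, had the widest change of the family, at 91.6, 71.7 and 70.3 in control and 90.6, 122 and 119 in H/R. H/R array 1 fell within the control range, and the error was large (log2 0.38 ± 0.20, adjusted p = 0.225). Gpx2, Gpx6, Gpx7 and Gpx8 had adjusted p of 0.169, 0.439, 0.693 and 0.797.

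The 6 peroxiredoxins, thiol peroxidases that take their electrons mostly from thioredoxin, had log2 changes of -0.14 to 0.25. Prdx1, the main cytosolic member, read 75279, 86932 and 87152 in control and 88430, 70130 and 71414 in H/R, so the group ranges overlapped (log2 -0.03 ± 0.15, adjusted p = 0.888). Prdx6, which uses glutathione and acts on oxidised phospholipids, read 7714, 7582 and 7498 in control and 10166, 8072 and 8037 in H/R. Its H/R scans were all above control, though H/R array 1 stood far above H/R array 2 (log2 0.25 ± 0.14, adjusted p = 0.253). Prdx2, Prdx3, Prdx4 and Prdx5 had log2 changes of 0.22, 0.03, 0.18 and -0.14 and adjusted p from 0.253 to 0.859. Prdx3 is the mitochondrial member and Prdx4 the one of the endoplasmic reticulum.

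Sulfiredoxin and the thioredoxin reductases, which restore peroxiredoxins and thioredoxins, changed where the proteins they act on did not pass the threshold. Srxn1, which repairs overoxidised peroxiredoxins, read 8047, 8034 and 7999 in control and 5869, 5983 and 5903 in H/R. The scans of each group lay close together and apart from the other group, and H/R reached 73.5% of control (log2 -0.44 ± 0.09, adjusted p = 0.0282). Txnrd1, the cytosolic selenoprotein reductase, read 63758, 64149 and 65332 in control and 46715, 47390 and 46938 in H/R. It fell to 73.1% of control with no overlap (log2 -0.45 ± 0.09, adjusted p = 0.0270). Txnrd2, the mitochondrial reductase, read 7497, 7413 and 7522 in control and 4333, 3937 and 3869 in H/R. This was the deepest fall of the thioredoxin system, to 55.0% of control (log2 -0.86 ± 0.10, adjusted p = 0.00793). Txnrd3, a reductase with a glutaredoxin domain that is best known from testis, went the other way, from 1147, 1242 and 1259 in control to 1841, 1907 and 1802 in H/R. Its scans did not overlap and it rose 1.54-fold (log2 0.63 ± 0.10, adjusted p = 0.0157). Leaving out any of the 4 arrays took Srxn1 and Txnrd1 over the threshold, with adjusted p of 0.0719 to 0.133 and 0.0730 to 0.128. Txnrd2 lost its call without H/R array 2 alone (0.0539), and Txnrd3 without control array 1 (0.0558), H/R array 1 (0.0832) or H/R array 2 (0.0895).

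Neither thioredoxin passed the test, and neither had an unadjusted p below 0.05. Txn1, the cytosolic protein, read 79464, 93822 and 93449 in control and 96499, 76716 and 77180 in H/R. Both control arrays lay between the H/R arrays, and the mean difference was near 0 (log2 -0.00 ± 0.16, adjusted p = 0.995). From brightest to dimmest, the scaled arrays ran opposite to their 75th percentiles before scaling. Those were 1769 and 2566 in H/R replicates 1 and 2, and 2455 and 2094 in control replicates 1 and 2. Prdx1 and Gstp1, also very bright, had the same array order. The part of the scaling in that order was not tested. Txn2, its mitochondrial counterpart, had a log2 change of 0.15 ± 0.11 (adjusted p = 0.371). Glutaredoxins, which remove glutathione from protein thiols, were not called either, in 3 of 3 genes with log2 changes of -0.27 to 0.17 and no unadjusted p below 0.05. With so few genes, little can be read from this beside the 25.8% of coding genes called. Glrx, the cytosolic enzyme, had a log2 change of 0.17 ± 0.17 (adjusted p = 0.482) and Glrx3 one of 0.05 ± 0.12 (adjusted p = 0.754). Glrx5, which serves iron-sulfur cluster assembly in mitochondria, read 110, 119 and 116 in control and 101, 86.6 and 89.4 in H/R. Its H/R scans were all lower, at a difference that missed the threshold (adjusted p = 0.148).

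Both steps of glutathione synthesis had a member that fell. Gclm, the modifier subunit of glutamate-cysteine ligase, the rate-limiting enzyme, read 4899, 5286 and 5187 in control and 3752, 3531 and 3493 in H/R. It fell to 71.7% of control without overlap (log2 -0.48 ± 0.10, adjusted p = 0.0299). Gclc, the catalytic subunit of the same enzyme, read 11742, 13146 and 13129 in control and 12324, 14102 and 13960 in H/R, and the groups overlapped (log2 0.08 ± 0.12, adjusted p = 0.639). Gss, glutathione synthetase, which adds glycine in the second step, read 12471, 12533 and 12449 in control and 8297, 7431 and 7535 in H/R. With no overlap, it fell to 63.1% of control (log2 -0.66 ± 0.10, adjusted p = 0.0147). Gsr, the reductase that regenerates glutathione from its oxidised form, gave dim signals of 46.6, 45.9 and 41.2 in control and 39.6, 49.7 and 52.5 in H/R. The H/R scans spanned the control scans (log2 -0.0004 ± 0.15, adjusted p = 0.999). Gclm lost its call whichever array was left out (adjusted p 0.0690 to 0.150). Gss lost it without control array 1 (0.0522), H/R array 1 (0.0582) or H/R array 2 (0.0872).

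**Figure D2:**
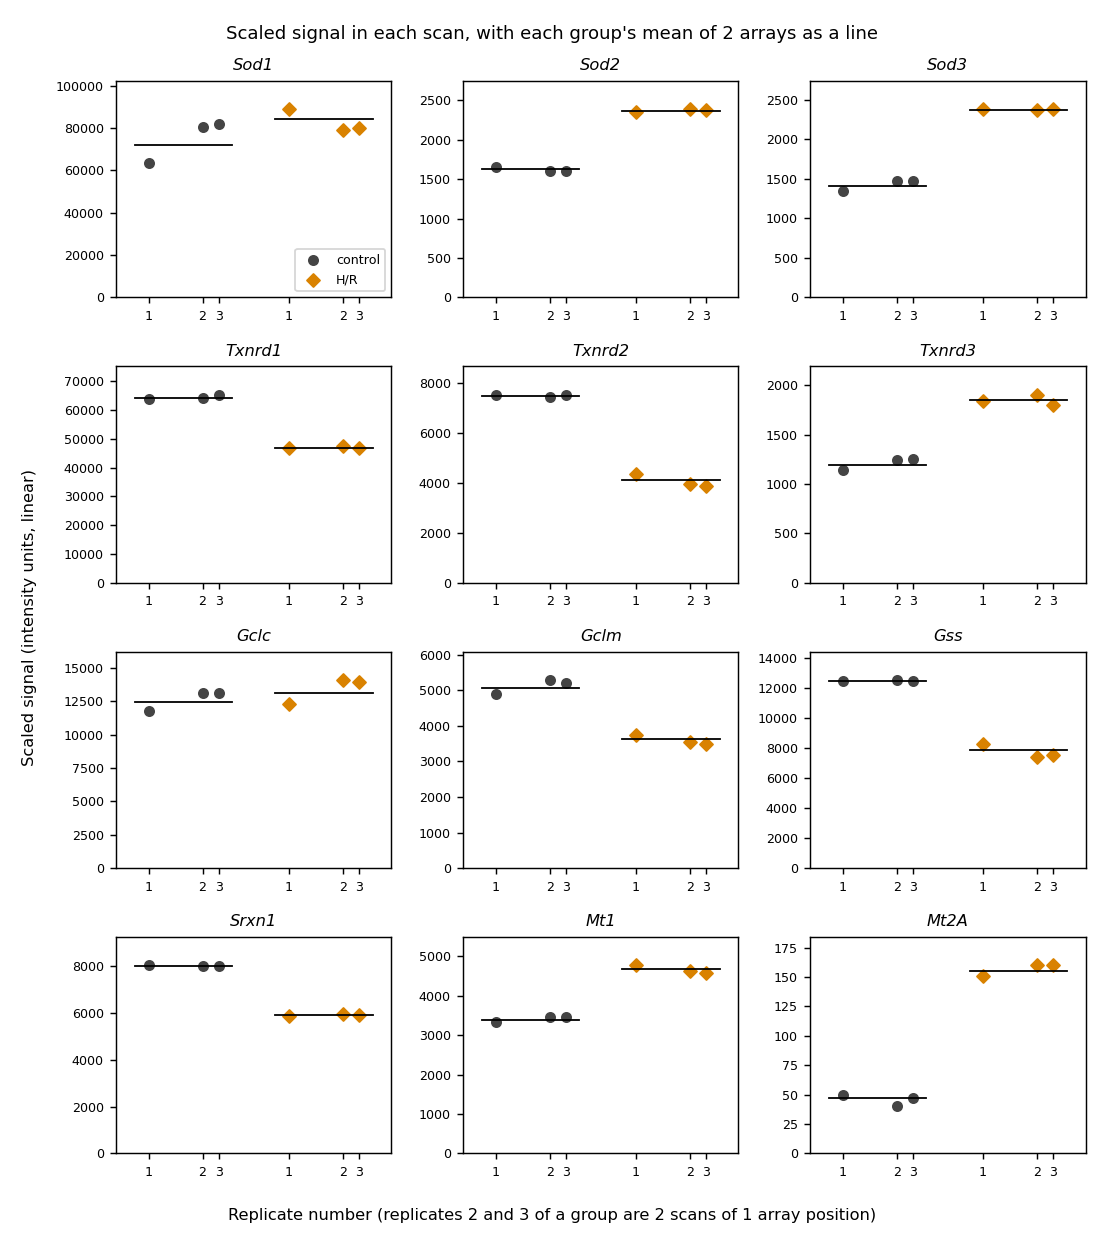
Scaled signal (linear intensity units, y axes from 0) in each scan of 12 members, with control as grey circles, H/R as orange diamonds and the mean of 2 arrays as a line; replicates 2 and 3 are scans of 1 array position. Sod2, Sod3, Txnrd3, Mt1 and Mt2A lie higher in every H/R scan, Txnrd1, Txnrd2, Gclm, Gss and Srxn1 lower, and Sod1 and Gclc overlap.

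Glutathione transferases made up 23 of the 57 members. Counts here and in the classes below are read against the 16.2% of coding genes that were higher and 9.62% that were lower. Of the 19 tested, 9 were higher (47.4%), 2 were lower (10.5%, near the share of coding genes) and 8 did not pass. The median log2 change was 0.46. The 32 other tested members had 5 higher and 5 lower (15.6% each) and a median of 0.07. The transferase classes differ in structure and substrate, and members of a class are close copies that a probe may read in part, which was not tested here.

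In the alpha class, known for conjugating lipid peroxidation products, all 5 tested genes were called, 3 upward and 2 downward. Gsta4, whose product is known for its activity on hydroxynonenal, read 930, 1339 and 1393 in control and 2529, 2765 and 2769 in H/R. The H/R scans were all higher, at 2.35-fold (log2 1.23 ± 0.20, adjusted p = 0.0176), but the control arrays lay far apart: the log2 change was 0.95 without control array 1 and 1.51 without control array 2. Gsta3 read 334, 379 and 401 in control and 786, 737 and 712 in H/R, a rise of 2.09-fold without overlap (log2 1.06 ± 0.12, adjusted p = 0.00721). A second Gsta3 probe was not above background in any scan. Gsta1 read 3574, 3938 and 3945 in control and 6759, 6216 and 6301 in H/R, a rise of 1.73-fold (log2 0.79 ± 0.11, adjusted p = 0.0107). By contrast, Gsta5 read 628, 586 and 574 in control and 332, 276 and 278 in H/R. It fell to 50.2% of control, the deepest fall among the 51 tested members (log2 -0.99 ± 0.13, adjusted p = 0.00991). Gsta2 was dim, at 86.2, 99.4 and 99.3 in control and 59.8, 52.7 and 56.2 in H/R. It fell to 61.6% of control (log2 -0.70 ± 0.12, adjusted p = 0.0191), but was 0.46 higher on the log2 scale with normexp background correction. Of these calls, Gsta1 and Gsta4 were lost without H/R array 1 (adjusted p 0.0677 and 0.0717) or H/R array 2 (0.0557 and 0.0881), Gsta5 without H/R array 2 (0.0516), and Gsta2 without control array 2 (0.0534), H/R array 1 (0.0718) or H/R array 2 (0.101).

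In the mu class, 2 of 6 tested genes were higher and none was lower. Gstm7 was dim and read 71.7, 60.2 and 66.7 in control and 160, 140 and 142 in H/R. Every H/R scan was above every control scan, a rise of 2.23-fold (log2 1.16 ± 0.12, adjusted p = 0.00619). Gstm4 read 3404, 3555 and 3546 in control and 4692, 4528 and 4579 in H/R, a rise of 1.33-fold (log2 0.41 ± 0.09, adjusted p = 0.0367) that was lost whichever array was left out (0.0745 to 0.160). Gstm1 read 5758, 5833 and 5894 in control and 8912, 7255 and 7121 in H/R. Its H/R scans were all higher, yet H/R array 1 stood well above array 2, and the gene missed the threshold (log2 0.46 ± 0.13, adjusted p = 0.0675). Gstm5 showed the same order of groups, at 5044, 6725 and 6761 in control and 9151, 7632 and 7618 in H/R (log2 0.52 ± 0.18, adjusted p = 0.104). Gstm2 read 4132, 3248 and 3246 in control and 5647, 3423 and 3443 in H/R, so replicate 1 was the brighter array in both groups and the groups overlapped (log2 0.27 ± 0.27, adjusted p = 0.506). Gstm3 had a log2 change of -0.03 (adjusted p = 0.884).

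Both tested theta class genes rose, a class known for activity on small halogenated compounds. Gstt1 read 640, 631 and 663 in control and 1416, 1310 and 1367 in H/R. The groups were far apart, at 2.14-fold (log2 1.10 ± 0.09, adjusted p = 0.00414). Gstt2 read 517, 458 and 467 in control and 856, 1046 and 1020 in H/R, a rise of 1.92-fold (log2 0.94 ± 0.14, adjusted p = 0.0127) that was lost without H/R array 2 (0.0630). Mgst1, a membrane-bound transferase of the endoplasmic reticulum and outer mitochondrial membrane, read 3468, 3768 and 3759 in control and 6436, 5987 and 6102 in H/R. It rose 1.73-fold without overlap (log2 0.79 ± 0.10, adjusted p = 0.00972), and lost its call without H/R array 1 (0.0643) or H/R array 2 (0.0549). Mgst2, a related enzyme that can also make leukotriene C, had a log2 change of 0.11 ± 0.14 (adjusted p = 0.608).

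Of the kappa, omega and pi classes, 1 of 4 tested genes was called (25%, near the 25.8% of coding genes called in either direction). Gstk1, the kappa enzyme of mitochondria and peroxisomes, was dim, at 58.6, 68.2 and 64.6 in control and 90.6, 119 and 123 in H/R. It rose 1.68-fold (log2 0.75 ± 0.17, adjusted p = 0.0380), and lost its call without control array 1 (0.124), control array 2 (0.0687) or H/R array 2 (0.123). Gstp1, a pi class enzyme abundant in many cultured lines, read 79089, 88574 and 89312 in control and 100651, 76732 and 77556 in H/R. The groups overlapped, with H/R array 1 the brightest and H/R array 2 the dimmest of the 4 (log2 0.07 ± 0.16, adjusted p = 0.769). Gstp3 and Gsto2 had log2 changes of -0.22 (adjusted p = 0.325) and -0.26 (adjusted p = 0.178), and all H/R scans of Gsto2 were below control.

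**Figure D3:**
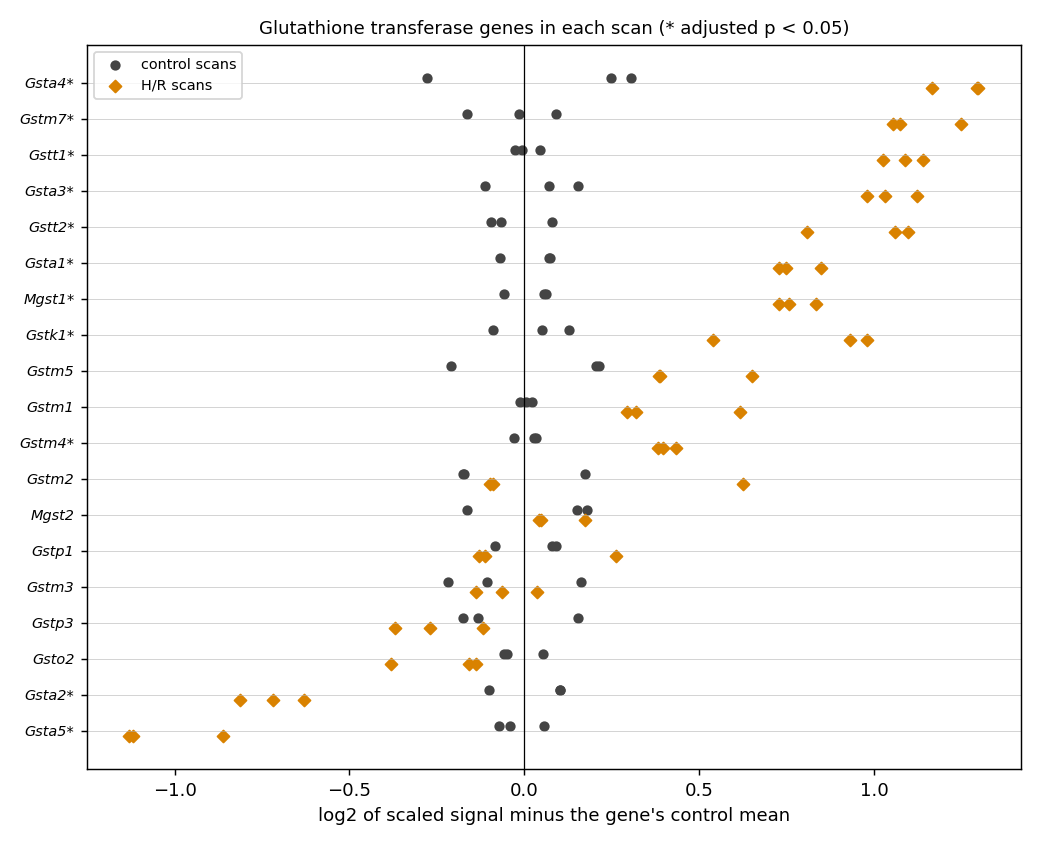
Log2 scaled signal of the 19 tested transferase genes in each scan, minus the mean of the gene's control arrays; grey circles are the 3 control scans, orange diamonds the 3 H/R scans and asterisks mark adjusted p below 0.05. The H/R scans of Gsta4, Gstm7, Gstt1 and Gsta3 lie near or above 1, those of Gsta5 and Gsta2 below -0.5, and those of Gstp1, Gstm2, Gstm3, Gstp3 and Mgst2 overlap control.

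Both metallothioneins above background rose, and Mt2A had the largest change among the 51 tested members. Mt2A was dim, at 49.8, 40.6 and 47.4 in control and 151, 160 and 160 in H/R. Even the lowest H/R scan was far above the highest control scan, a rise of 3.32-fold (log2 1.73 ± 0.11, adjusted p = 0.00236). Mt1, its neighbour on chromosome 19, read 3330, 3470 and 3452 in control and 4770, 4631 and 4571 in H/R. It rose 1.38-fold without overlap (log2 0.46 ± 0.09, adjusted p = 0.0274), a call lost whichever array was left out (0.0625 to 0.134). The promoters of both genes are shown, 250 bases before to 50 after each start, from RefSeq (GRCr8), 5′ to 3′ on the gene's strand. They were chosen after both genes were seen to rise, and a shared cause was not tested. Capitals mark the core of the metal response element bound by MTF1, searched as TGCACNC and TGCGCNC on both strands. The Mt1 window is chr19:10832926-10833225, minus strand, and that of Mt2A is chr19:10838659-10838958, minus strand.
Mt1: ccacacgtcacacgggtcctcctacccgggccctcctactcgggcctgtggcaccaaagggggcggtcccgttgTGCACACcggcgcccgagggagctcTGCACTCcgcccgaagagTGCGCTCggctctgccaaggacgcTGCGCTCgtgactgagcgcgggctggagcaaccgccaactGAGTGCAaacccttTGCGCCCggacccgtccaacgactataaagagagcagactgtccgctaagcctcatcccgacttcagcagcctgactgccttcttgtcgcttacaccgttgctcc
Mt2A: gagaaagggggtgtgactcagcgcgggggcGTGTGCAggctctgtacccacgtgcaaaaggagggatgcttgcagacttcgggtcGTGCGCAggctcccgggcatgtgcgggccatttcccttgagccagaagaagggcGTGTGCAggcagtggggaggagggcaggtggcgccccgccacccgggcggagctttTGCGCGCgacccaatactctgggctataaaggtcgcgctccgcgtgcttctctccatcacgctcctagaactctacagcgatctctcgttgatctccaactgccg
Mt1 held 6 matches and Mt2A 4. At least 1 match was present in 16 of the 54 member promoters in the table (29.6%) and in 24.2% of all 33469 promoters of this length. Mt1 and Mt2A were the only member promoters with 4 or more, a number reached by 0.439% of all promoters. Among the genes with a promoter, a match was found for 7 of 11 that rose (Gsta4, Gstk1, Gstm4, Mgst1, Mt1, Mt2A and Txnrd3). It was also found for 2 of 7 that fell (Gclm and Gsta2), 6 of 26 that did not pass and 1 of 5 not tested (Mt3). The part of these matches in the changes was not tested.

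The antioxidant response element, the site of NRF2 with small MAF proteins, was searched by its core TGACNNNGC on both strands. The RefSeq table held promoters of 49 of the 57 genes, some with more than 1 start. The core was in 15 of their 54 promoters (27.8%), against 12.1% of all promoters. Among the genes with a promoter, it was found for 6 of 11 that rose (Gsta1, Gsta3, Gstm7, Mt1, Mt2A and Sod2), 3 of 7 that fell (Gclm, Gsta2 and Txnrd1), 6 of 26 that did not pass and 0 of 5 not tested. Within these windows the core was thus found among genes of both directions. Sites outside the windows were not searched, and the part of NRF2 in these changes was not tested. As examples, promoters of 2 genes that fell and 1 that rose follow, with the core in capitals, again 5′ to 3′ on the gene's strand. The windows are chr2:213031885-213032184, plus strand, for Gclm, chr7:22755855-22756154, minus strand, for Txnrd1 and chr9:31154739-31155038, plus strand, for Gsta3.
Gclm: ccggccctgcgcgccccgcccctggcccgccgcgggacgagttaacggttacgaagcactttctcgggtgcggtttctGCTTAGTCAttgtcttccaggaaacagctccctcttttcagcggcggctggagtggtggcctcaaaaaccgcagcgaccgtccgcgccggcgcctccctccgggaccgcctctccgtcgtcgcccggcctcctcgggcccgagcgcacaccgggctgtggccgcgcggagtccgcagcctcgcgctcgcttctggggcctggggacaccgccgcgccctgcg
Txnrd1: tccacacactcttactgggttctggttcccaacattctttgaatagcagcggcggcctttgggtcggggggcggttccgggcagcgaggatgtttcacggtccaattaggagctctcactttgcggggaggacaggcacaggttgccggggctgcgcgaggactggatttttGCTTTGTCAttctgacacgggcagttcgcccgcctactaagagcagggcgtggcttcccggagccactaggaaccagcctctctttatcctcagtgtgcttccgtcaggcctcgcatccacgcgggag
Gsta3: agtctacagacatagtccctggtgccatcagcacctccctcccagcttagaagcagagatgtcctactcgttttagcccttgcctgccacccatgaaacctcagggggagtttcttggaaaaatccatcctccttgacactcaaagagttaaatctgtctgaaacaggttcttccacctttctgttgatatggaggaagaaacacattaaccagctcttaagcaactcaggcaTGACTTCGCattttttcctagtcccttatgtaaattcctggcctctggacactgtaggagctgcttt
The core begins at position -172 from the start in Gclm, -78 in Txnrd1 and -17 in Gsta3. In Gclm and Txnrd1 it is on the opposite strand, so its letters read reversed and complemented. No capital letters above overlap a match of the other motif. Another start of Txnrd1 and another of Gsta3 have no such core in their window. A match is a string of letters, and binding was not measured.

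The counts of the neighbouring lists below are read against the 16.2% of all coding genes that were higher and 9.62% that were lower, with a median change of 0.07. Of 11 tested regulators in the NRF2 pathway, 1 was higher and none lower, with a median of 0.20. Nfe2l1, a relative of NRF2 known for driving proteasome genes, read 1122, 1052 and 1103 in control and 1882, 1979 and 2018 in H/R. It rose 1.76-fold (log2 0.82 ± 0.10, adjusted p = 0.00773; 0.0573 without H/R array 2). Nfe2l2, which encodes NRF2, read 9677, 11802 and 12008 in control and 12762, 16355 and 16395 in H/R. Its scans were apart, but both groups' arrays differed from each other and it missed the threshold (log2 0.43 ± 0.17, adjusted p = 0.140). Keap1, the adaptor that sends NRF2 to degradation, had a log2 change of 0.33 (adjusted p = 0.178), and Mafg, a small MAF partner, of -0.58 (adjusted p = 0.0572).

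Other NRF2 targets share the regulator but not the chemistry of the members. Most of the list are enzymes, but it also holds transporters such as Abcc1 and Slc7a11 and the ferritin chain Ftl1. Genes were called in both directions: 3 of 20 were higher (15%, near the 16.2% of coding genes) and 4 were lower (20%, against 9.62%). The median was 0.10. Ephx1, a microsomal epoxide hydrolase, rose 3.02-fold (adjusted p = 0.00205), from 6438, 6647 and 6650 to 19479, 20188 and 19951. Osgin1, an oxidative stress-induced growth inhibitor, rose 2.10-fold (adjusted p = 0.00493). Aldh3a1, an aldehyde dehydrogenase, was at 13.6, 21.8 and 20.2 in control, with 2 of 3 scans above background, and at 126, 117 and 114 in H/R (fitted 7.13-fold, adjusted p = 0.00361). Hmox1, the inducible haem oxygenase, was on the other side, at 17143, 17360 and 17062 in control and 9779, 10218 and 10227 in H/R. It fell to 58.2% of control (adjusted p = 0.00790; 0.0568 without H/R array 1 and 0.0515 without H/R array 2). The other 3 that fell, Akr1b8, Abcc1 and Ugt1a6, are named because they complete the count and were chosen after their values were seen, at 56.8%, 62.5% and 65.9% of control. Akr1b8 lost its call without control array 1 (0.0567), control array 2 (0.0533) or H/R array 2 (0.0731). Abcc1 and Ugt1a6 lost theirs without control array 2 (0.0660 and 0.0578), H/R array 1 (0.109 and 0.0785) or H/R array 2 (0.146 and 0.105). Nqo1, the quinone reductase often used to read NRF2 activity, had a log2 change of 0.09 (adjusted p = 0.555).

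NADPH, which drives both glutathione and thioredoxin reductase, is made by enzymes of which 4 of 10 were higher and none lower, with a median of 0.26. Idh1, the cytosolic isocitrate dehydrogenase, read 1492, 1554 and 1519 in control and 4551, 4441 and 4411 in H/R, a rise of 2.97-fold (adjusted p = 0.00205). Me1, malic enzyme, rose 1.54-fold (adjusted p = 0.0181), Tkt, transketolase, 1.45-fold (0.0418) and Nadk, the NAD kinase, 1.35-fold (0.0386). Idh1 kept its call with each array left out, while Nadk lost it whichever was left out (0.0603 to 0.168), Tkt without control array 1 (0.105) or either H/R array (0.148 and 0.159), and Me1 without control array 2 (0.0551) or either H/R array (0.0749 and 0.101).

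Supply of cysteine and turnover of glutathione had 4 of 14 genes higher and 1 lower, with a median of 0.20. Anpep, aminopeptidase N, which splits the dipeptide left from glutathione, was dim at 30.2, 29.0 and 26.2 in control and at 119, 106 and 104 in H/R, and rose 3.87-fold (adjusted p = 0.00207). Dpep1, a dipeptidase of the same step, rose 1.77-fold (adjusted p = 0.00673; 0.0501 without H/R array 1). Mpst, mercaptopyruvate sulfurtransferase, rose 1.54-fold (adjusted p = 0.0225) and Oplah, oxoprolinase, 1.49-fold (0.0242). Cth, which makes cysteine from cystathionine, was the gene that fell, to 75.9% of control (adjusted p = 0.0377). Mpst was lost without control array 2 (0.0617) or either H/R array (0.0839 and 0.116), Oplah whichever array was left out (0.0631 to 0.116) and Cth likewise (0.0810 to 0.170). Slc7a11, the cystine importer, had a log2 change of -0.06 (adjusted p = 0.668).

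Other thiol oxidoreductases and thioredoxin partners had 1 of 14 higher and none lower, with a median of -0.10. Sesn3, a sestrin, rose 1.66-fold (adjusted p = 0.00921; 0.0603 without H/R array 1 and 0.0657 without H/R array 2). Selenow, a small selenoprotein, had the widest difference of the list but split by array, at 16252, 10677 and 10787 in control and 7933, 5186 and 5184 in H/R (log2 -1.04 ± 0.29, adjusted p = 0.0608). Oxr1, an oxidation resistance protein, and Selenot, a selenoprotein of the endoplasmic reticulum, had log2 changes of 0.33 (adjusted p = 0.0611) and -0.36 (adjusted p = 0.0655).

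Enzymes that produce oxidants were higher in 4 of 9 tested genes and lower in none, with a median of 0.49. Aox1, aldehyde oxidase, read 424, 424 and 425 in control and 1462, 1495 and 1503 in H/R, a rise of 3.49-fold (adjusted p = 0.00183). Xdh, which makes urate and can release superoxide and hydrogen peroxide, rose 2.63-fold (adjusted p = 0.00644), from 230, 287 and 286 to 635, 713 and 727. Nox4, a hydrogen peroxide-producing NADPH oxidase, rose 2.06-fold (adjusted p = 0.00699), and these 3 kept their calls with each array left out. Ncf1, a subunit of the phagocyte oxidase, was dim, rose 1.63-fold (adjusted p = 0.0364) and lost its call whichever array was left out (0.0540 to 0.129).

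Genes of the metal response beside the metallothioneins had 2 of 14 higher (14.3%, against 16.2% of coding genes), 3 lower (21.4%, against 9.62%) and a median of 0.09. Cp, ceruloplasmin, the copper ferroxidase, rose 2.43-fold (adjusted p = 0.00498), from 318, 361 and 376 to 797, 857 and 873. Zinc transporters split: the importer Slc39a8 rose 1.51-fold (adjusted p = 0.0228), while the importer Slc39a14 fell to 58.3% of control (0.00744) and the exporter Slc30a4 to 66.5% (0.0155). The importer Slc39a10 also fell and is named after its value was seen, at 71.0% of control (0.0276). Slc39a8 and Slc39a10 lost their calls whichever array was left out (0.0630 to 0.113 and 0.0711 to 0.136). Slc39a14 lost it without H/R array 1 (0.0541) or H/R array 2 (0.0556), and Slc30a4 without control array 1 (0.0545) or either H/R array (0.0775 and 0.0945). Mtf1, the zinc-sensing factor that binds the metal response element, had a log2 change of 0.16 (adjusted p = 0.396).

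**Figure D4:**
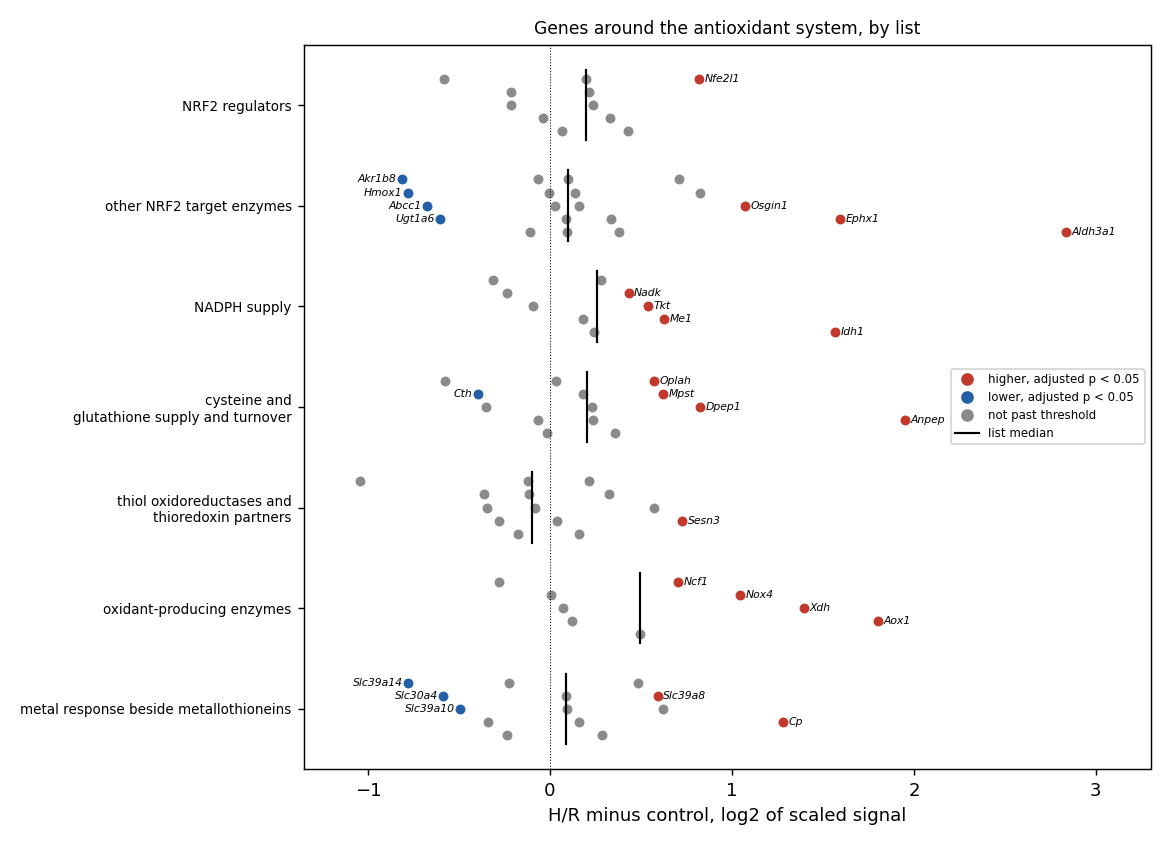
Change after H/R of the tested genes of 7 lists around the members, with 1 list per line; the x axis is the H/R minus control difference in log2 scaled signal, red and blue points passed adjusted p below 0.05 and black lines are list medians. The oxidant-producing list has the highest median, 0.49, and NRF2 targets and metal response genes have called points on both sides of 0.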

How the data were processed

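RNA of 3 control and 3 H/R samples of H9c2 cells was read in 1 colour on Agilent-made Arraystar arrays. The deposited scanner files hold spot intensity values from Agilent Feature Extraction 11.0.1.1, as the submitters' processing notes name it. Per the file headers, these are background-corrected within an array and not normalized between arrays. A second deposited file gives log2 values of 16841 probes, whose columns followed the log2 scanner values at r above 0.999; how they were normalized is not stated there.

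Spots with outlier flags were dropped, those of 1 probe averaged, and log2 values set to each scan's 75th percentile over non-control probes. Replicates 2 and 3 of a group were averaged. The 15899 probes well above background in every scan of at least 1 group were fitted with limma 3.58.1 (lmFit, eBayes, residual df 2, prior df 2.86) in R 4.3.3, after a test on simulated data. Python 3.11.15, pandas 2.3.3 and matplotlib 3.10.9 did the rest. Accessions were named through RefSeq GRCr8. A probe well above background in only part of a group has a partly bounded fold.

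The text gives every member, and of each neighbouring list the 4 genes with the smallest adjusted p, any gene that alone moved its way, and a few fixed reference genes. Members and lists were chosen with earlier results of these data known. The lists share some genes, such as Slc7a11. Alternatives changed the scaling, background correction, dim-probe filter, use of scans, replicate block and probe choice, and left out arrays.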

Additional observations from a re-analysis of the deposited data

How the results depend on the processing

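The 14 higher and 7 lower members, and the 3769 changed probes, came from 2 arrays per group. Leaving out 1 array gave 4 to 10 higher members, 0 to 3 lower members and 1008 to 2702 changed probes, and the array left alone in its group was then assumed to vary like the other. Normexp background correction with an offset of 50 gave 0 higher members, 0 lower members and 0 changed probes with limma (1413 probes and 11 members at an unadjusted p below 0.05), and turned Gsta2 to 0.46; the cause was not tested. It was run on the median spot signal, because the files used here have no mean signal column, so the planned form was not run. Without the filter on dim probes, which raised the probes tested to 24578, 2 members were higher, 0 lower (22 at an unadjusted p below 0.05) and 594 probes changed. Treating the 6 scans as separate samples gave 17 higher and 9 lower members and 8309 changed probes. Under the other settings the counts stayed within 1.5 times, at 12 to 14 higher and 7 or 8 lower members and 3573 to 3886 probes. The higher share of changed probes was 62.6%, against 54.5% with the percentile taken over spots (chosen after seeing the data, as was the median-signal normexp), 53.8% with quantile normalization, 41.0% with median scaling and 53.5% in the authors' deposited log2 values. Median scaling moved the median of all probes from 0.07 to -0.06 and normexp to 0.24. Among the 21 called members, 18 were called under every setting other than leaving out an array, normexp and no filter; the exceptions were Gstm4, Mt1 and Gstk1. The groups share replicate numbers only: deviations of the same-numbered arrays correlated at r = 0.153 over probes, and a fit with the replicate number as a block gave 13 higher and 7 lower members and 3886 changed probes, with Gstm4 lost. Dim signals limit Gpx2, Gpx3, Gpx6, Gsr, Gsta2, Gstm3, Gstm7, Gstk1 and Mt2A, among others.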
